A study of Homo sapiens with 12 samples.

Results

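The 4 CEACAM family genes described here are CEACAM1, CEACAM5, CEACAM6 and CEACAM19. They were chosen by name from the 25733 genes listed with a value in 12 RNA sequencing libraries, and all 4 were found. A mean of at least 1 FPKM (the reads of a gene scaled to its exon length and to a total set for each library) over the 12 libraries was taken as expressed. By this unit CEACAM1 was the only gene of the 4 that met it. CEACAM19 came just under it, with means above 1 FPKM in both groups given NH4Cl, CEACAM6 was low, and CEACAM5 was near 0. The call depends on the unit, since in TPM, with every library scaled to the same sum, CEACAM19 averaged 3.30 and CEACAM6 1.21.

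Carcinoembryonic antigen-related cell adhesion molecules are glycoproteins of the cell surface that belong to the immunoglobulin superfamily. CEACAM1 crosses the membrane, and its long-tailed forms carry tyrosine motifs inside the cell that bind SHP phosphatases, whereas CEACAM5 (the tumour marker CEA) and CEACAM6 are held in the membrane by a glycosylphosphatidylinositol (GPI) anchor. In the normal colon CEACAM1, CEACAM5 and CEACAM6 lie on the luminal face of differentiated epithelial cells, and CEACAM5 and CEACAM6 are often raised in colorectal tumours.

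HCT116, an established human colon cancer cell line, was used for every library, with 4 groups of 3 libraries each. Control cells received neither agent. A second group received TGF-β, a growth and differentiation cytokine, at 200 pM for 1 h. NH4Cl, a source of ammonia, was given at 10 mM for 24 h in another group, and the last group had NH4Cl at 10 mM for 23 h and then 200 pM TGF-β for 1 h. The paper asks how ammonia bears on TGF-β signalling, and it used RNA of these cells to look at genes regulated by TGF-β. Its test of CEACAM1 with ammonia used Western blots of SW480 colon cancer cells made to overexpress it. Only RNA of HCT116 cells is described here. Libraries carry replicate numbers 1, 2 and 3 in each group. Nothing in the labels says that the 3 replicates were separate cultures, so the p-values below measure the spread between these samples. In bulk RNA, fewer cells that express a gene and less of its RNA per cell cannot be told apart.

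The libraries held between 14807630 and 18191998 reads on genes, with a median of 15484798. Those of replicate number 3 stood apart from the others. With group in the same limma fit to all 25733 genes, 30.6% of genes (7887) differed between replicate number 3 and numbers 1 and 2, of which 4091 were higher and 3796 lower. The FPKM of a library summed to between 301728 and 305984 in replicate number 3 and to between 262958 and 278920 in the others. The total to which the deposited FPKM were scaled was 0.964 to 0.969 times the reads on genes in replicate number 3. In the others it was 1.017 to 1.032 times those reads. It is thus not the plain count of reads on genes, and its part in the replicate difference was not tested. Results below are therefore given both without and with the replicate number as a block, and without replicate number 3 where it matters.

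The label of the cells was checked against markers. All 8 colon epithelium markers looked for were expressed, led by KRT18 at a mean of 876 FPKM and KRT8 at 860 FPKM, and the adhesion molecule EPCAM had 254 FPKM. Of 10 markers of differentiated colonocytes and goblet cells 4 were expressed, namely the secreted goblet cell peptide TFF3 at 85.2 FPKM, PHGR1 at 5.86, CDH17 at 4.92 and LGALS4 at 1.06 FPKM, whereas KRT20 had 0.190 FPKM and FABP1 0.0543 FPKM. Leukocytes are a known source of several CEACAM transcripts. Of 7 leukocyte and granulocyte markers 4 were in the table and 0 reached the filter, and their FPKM summed to between 0.192 and 0.531 per library, with ITGAM the most abundant at 0.196 FPKM. Of 4 fibroblast markers 1 was expressed, COL1A1 at 1.68 FPKM, with COL1A2 at 0.00653 and COL3A1 at 0.00745 FPKM. Of 2 endothelial markers 1 was expressed, VWF at 3.01 FPKM, while PECAM1 had 0.0348 FPKM. The fibroblast markers summed to between 1.18 and 2.68 FPKM per library and the endothelial markers to between 1.29 and 6.54 FPKM. No marker in the table was at 0 in all 12 libraries.

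CEACAM1 (ENSG00000079385), an inhibitory adhesion receptor, lies on the minus strand of chromosome 19, from 42507304 to 42561234 on GRCh38 in GENCODE 29. CEACAM5 (ENSG00000105388) lies on the plus strand from 41708585 to 41729798, and CEACAM6 (ENSG00000086548) follows it on the same strand from 41750977 to 41772208. CEACAM19 (ENSG00000186567), a transmembrane relative whose role is little studied, lies further along the plus strand from 44662278 to 44684359. RefSeq promoters were matched for 3 of the 4 members. Their RefSeq starts, at 42528481 for CEACAM1, 41708626 for CEACAM5 and 41755530 for CEACAM6, lie inside the GENCODE spans given above. The last 200 bases before these starts are shown because CEACAM1 had a higher level than CEACAM5 and CEACAM6, although these stretches are alike. Each is printed 5′ to 3′ on its gene's own strand (GRCh38.p14), at chr19:42528482-42528681 (minus) for CEACAM1, chr19:41708426-41708625 (plus) for CEACAM5 and chr19:41755330-41755529 (plus) for CEACAM6. Capitals mark matches to the 4 motifs described next.
CEACAM1: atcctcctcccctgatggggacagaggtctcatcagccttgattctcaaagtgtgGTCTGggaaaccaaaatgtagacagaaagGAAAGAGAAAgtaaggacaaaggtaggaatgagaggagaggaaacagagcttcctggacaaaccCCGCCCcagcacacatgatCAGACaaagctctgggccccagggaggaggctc
CEACAM5: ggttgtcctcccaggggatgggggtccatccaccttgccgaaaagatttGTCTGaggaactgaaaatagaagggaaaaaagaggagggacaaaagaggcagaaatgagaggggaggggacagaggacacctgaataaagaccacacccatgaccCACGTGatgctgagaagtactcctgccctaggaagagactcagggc
CEACAM6: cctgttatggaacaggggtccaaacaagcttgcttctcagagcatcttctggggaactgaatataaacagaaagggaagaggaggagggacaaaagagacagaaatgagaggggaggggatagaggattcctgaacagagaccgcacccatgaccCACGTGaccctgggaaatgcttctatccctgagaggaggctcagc

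In aligned columns the CEACAM5 and CEACAM6 promoters were 73.2% identical, CEACAM1 and CEACAM6 65.9%, and CEACAM1 and CEACAM5 64.4%. Matches on either strand were sought in the 250 bases before the start. The E-box CACGTG, the core bound by USF factors among others, was found 46 bases before the start of CEACAM5 and 45 bases before that of CEACAM6, and not in the CEACAM1 window. It occurs in 6.34% of 35116 promoters. CEACAM1 had the GC box GGGCGG 52 bases before its start, read on the opposite strand. CEACAM6 had it at 211 bases, outside the printed stretch, and 42.6% of promoters hold it. An interferon-response-like motif, GAAA and GAAA with any pair of bases between them, began 116 bases before the CEACAM1 start, and 3.02% of promoters hold it. The short SMAD box CAGAC was found at 247, 145 and 33 bases before the start of CEACAM1, at 246 and 151 bases for CEACAM5 and at 239 bases for CEACAM6, and 38.0% of promoters hold it. None of the matches overlapped another motif's match. A match describes letters only, and no binding was measured here.

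CEACAM1 had 2.57, 2.60 and 2.83 FPKM in control replicates 1 to 3, and 2.23, 2.59 and 2.70 FPKM with TGF-β. With NH4Cl it had 3.18, 3.11 and 3.23 FPKM, and with both agents 3.26, 3.03 and 3.38 FPKM. All 6 libraries with NH4Cl were above all 6 without it, while the control and TGF-β libraries overlapped, as did those with NH4Cl alone and with both agents. The control mean was 2.67 ± 0.145 FPKM and the TGF-β mean 2.51 ± 0.246, while NH4Cl alone averaged 3.17 ± 0.0591 and the combination 3.22 ± 0.176 FPKM (SD, n = 3). These values rest on 217 to 317 reads per library, for which counting alone gives an SD of 0.173 in control, 0.170 with TGF-β, 0.193 with NH4Cl and 0.190 FPKM with both. The SD between replicates was above the counting SD with TGF-β and below it in the other groups.

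CEACAM19 had 0.556, 0.817 and 0.687 FPKM in control and 0.775, 0.747 and 0.820 FPKM with TGF-β. With NH4Cl it had 0.896, 1.41 and 1.21 FPKM, and with both agents 0.997, 0.918 and 1.30 FPKM. Here too each of the 6 libraries with NH4Cl was above each of the 6 without it, by a smaller margin than the spread within the NH4Cl groups. Its group means were 0.687 ± 0.130, 0.781 ± 0.0366, 1.17 ± 0.260 and 1.07 ± 0.203 FPKM (SD, n = 3) in the same order, from 49 to 120 reads per library.

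CEACAM6 had 0.213, 0.210 and 0.907 FPKM in control, 0.405, 0.194 and 0.654 with TGF-β, 0.106, 0.1003 and 0.589 with NH4Cl, and 0.246, 0 and 0.617 with both agents. The highest value of every group came from replicate number 3, and the 4 groups overlapped. The value of 0 stands for 0 reads, which allows up to 0.0643 FPKM (3 reads), counting error only. CEACAM5 had 0.0881, 0.0521 and 0.282 FPKM in control, 0.112, 0.0590 and 0.205 with TGF-β, 0.0193, 0.0365 and 0.103 with NH4Cl, and 0.0373, 0.117 and 0.0351 with both. These come from 1 to 14 reads per library, and the groups of CEACAM5 overlapped.

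**Figure D1:**
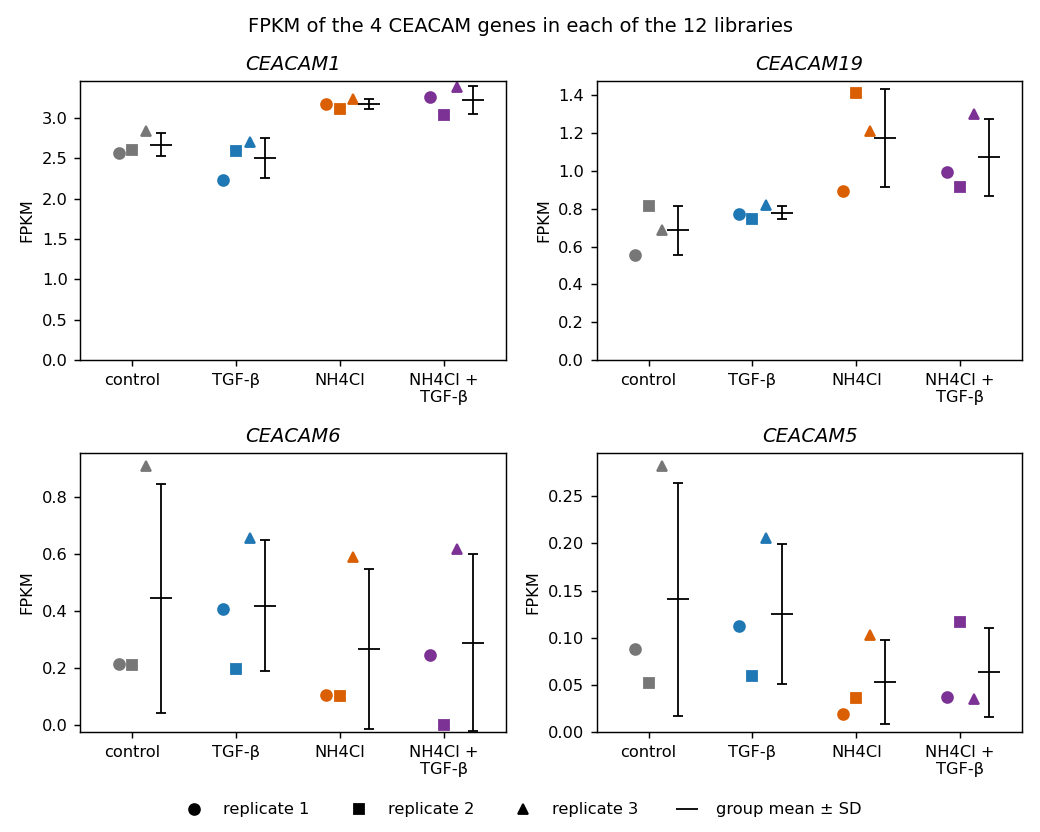
FPKM of CEACAM1, CEACAM19, CEACAM6 and CEACAM5 in each library by group, with replicate numbers as symbols and group means ± SD (n = 3) as black bars; each panel has its own scale. The 6 libraries with NH4Cl lie at 3.03 to 3.38 FPKM for CEACAM1, above the 2.23 to 2.83 FPKM of the 6 without it.

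By mean level over the 12 libraries the order was CEACAM1 (2.89 FPKM), CEACAM19 (0.928), CEACAM6 (0.354) and CEACAM5 (0.0956). CEACAM1 was above CEACAM19 in 12 of 12 libraries with no overlap of their values. CEACAM19 was above CEACAM6, and CEACAM6 above CEACAM5, in 11 of 12 libraries each, and the ranges of these neighbours overlapped. Of all 25733 genes, 64.3% had a lower mean FPKM than CEACAM1 and 22.8% a lower one than CEACAM5.

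The table lists 16 other genes named CEACAM or PSG (the pregnancy-specific glycoproteins of the placenta belong to the same family). Of these only CEACAM21 reached the filter, with a mean of 1.64 FPKM and values from 1.27 to 2.07 FPKM. It was 1.62 ± 0.266 FPKM with NH4Cl and 1.67 ± 0.278 FPKM without it (SD, n = 6), and limma called it in none of the comparisons (averaged NH4Cl effect -0.03, SE 0.0779, adjusted p = 0.890). The other 15 stayed under 1 FPKM in every library. Their highest values were 0.728 for PSG1, 0.184 for PSG5, 0.176 for PSG11, 0.167 for CEACAMP10, 0.135 for CEACAMP5, 0.119 for CEACAMP8, 0.103 for CEACAM22P, 0.0989 for CEACAM4, 0.0971 for PSG10P, 0.0947 for CEACAM20, 0.0893 for PSG2, 0.0797 for CEACAM16, 0.0692 for PSG8-AS1, 0.0513 for PSG9 and 0.0199 FPKM for PSG4.

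**Figure D2:**
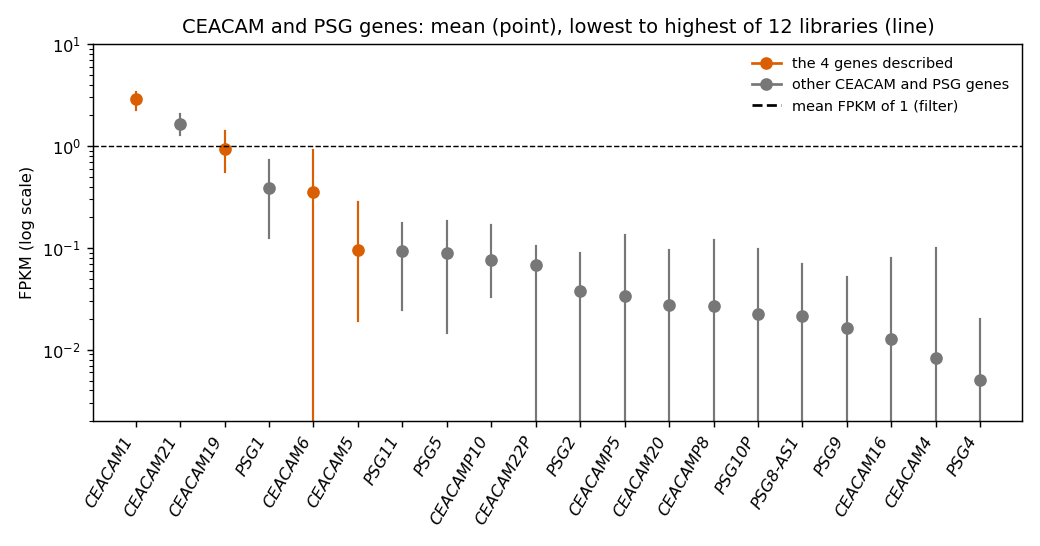
Mean FPKM (points) and the range over 12 libraries (lines) of the 20 CEACAM and PSG genes, on a log scale cut off at the bottom, where lines that reach the axis include 0 or very low values. Only CEACAM1 and CEACAM21 have means above the dashed line at 1 FPKM.

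Some reads could belong to more than 1 gene. Exons of CEACAM1 share 185 bases (3.35%) with LIPE-AS1 on the opposite strand, itself at a mean of 0.155 FPKM from 7 to 16 reads per library. CEACAM19 shares 121 bases (2.33%) with PVR, which had 32.9 FPKM and did not pass the test for NH4Cl (averaged effect -0.00, adjusted p = 0.961). CEACAM5 and CEACAM6 share 544 bases (16.2%) and 172 bases (5.64%) with AC243967.1, a gene of the same strand that overlaps both. Of all stretches of 50 bases in their transcripts, 3.29% in CEACAM1, 16.4% in CEACAM5, 6.99% in CEACAM6 and 1.84% in CEACAM19 also occur in transcripts of other genes. Values per gene cannot separate the long-tailed from the short-tailed forms of CEACAM1. The part of shared bases in the levels was not tested.

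The first question is what NH4Cl did to these genes. CEACAM1 averaged 3.20 ± 0.121 FPKM in the 6 libraries with NH4Cl and 2.59 ± 0.201 FPKM in the 6 without (SD), a ratio of 1.24, from 1671 and 1382 reads. Among genes past the filter, 3.57% (440 of 12341) had all 6 libraries with NH4Cl above all 6 without. With no overlap CEACAM1 was bound to be higher with NH4Cl in 6 of 6 pairs of the same replicate number, and it was so by 0.398 to 1.03 FPKM. The comparison of the mean of both NH4Cl groups with the mean of both groups without it was added after the data were seen.

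In that averaged comparison CEACAM1 rose by 0.23 on the log2 scale (SE 0.0485, adjusted p = 0.0232), where 6.14% of genes (758) passed. Blocked by replicate number, the same change had an adjusted p of 0.00251 (SE 0.0408), where 31% of genes (3830) passed, so a call there is a common result. With replicate numbers 1 and 2 only and no block, the change was 0.25 (adjusted p = 0.0124), where 26.6% of genes (3282) passed. Without the block the call depended on single libraries. It was lost, with adjusted p between 0.0511 and 0.0673, without control replicate 1 or 2, TGF-β replicate 1 or 2, NH4Cl replicate 1, 2 or 3, or replicate 1 with both agents, and kept without each of the other 4 libraries. With the block it passed without any 1 of the 12 libraries (adjusted p 0.00449 to 0.00906). Without the filter and the block it did not pass (adjusted p = 0.0536).

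Some marker levels also differed with NH4Cl. The endothelial markers summed to 1.56, 1.67 and 3.96 FPKM in control replicates 1 to 3 and to 1.62, 1.29 and 4.03 FPKM with TGF-β. With NH4Cl they summed to 2.51, 2.77 and 5.72 FPKM, and with both agents to 2.47, 2.45 and 6.54 FPKM, so the sum was higher with NH4Cl in 6 of 6 pairs (means of 3.74 with and 2.35 without). In fits to all 25733 genes 0 of the 2 passed without the block and 1 with it, VWF, which rose by 0.49 (adjusted p = 0.00106; 3.70 against 2.33 FPKM), while PECAM1 was near 0 (0.0445 against 0.0250 FPKM). The markers of differentiated colonocytes and goblet cells summed to 63.3, 51.5 and 159 FPKM in control and to 57.8, 54.4 and 147 FPKM with TGF-β. With NH4Cl they summed to 67.7, 75.3 and 179 FPKM, and with both agents to 69.3, 67.0 and 193 FPKM, higher with NH4Cl in 6 of 6 pairs (means of 108.5 and 88.9). Of these 10 markers 0 passed without the block and 1 with it, the most abundant, TFF3, which rose by 0.39 (adjusted p = 0.00372; 95.8 against 74.6 FPKM). Among the rest, PHGR1 (5.03 against 6.69 FPKM), LGALS4 (0.950 against 1.16), KRT20, GUCA2A and MUC2 had lower means with NH4Cl. Higher means were found for CDH17 (4.97 against 4.87 FPKM), CA2 (0.873 against 0.583), SLC26A3 and FABP1. The sum of the 8 colon epithelium markers was lower with NH4Cl in every pair (means of 2568 and 2774 FPKM). 0 of these 8 passed without the block, and with it 2 rose (EPCAM and VIL1) and 2 fell (KRT19 and CDH1). Of the exon bases of VIL1, 44.0% lie under a gene of the opposite strand, and the part of that in its values was not tested. The fibroblast sum was higher with NH4Cl in 5 of 6 pairs (1.84 and 1.59 FPKM) and the leukocyte sum in 4 of 6 (0.423 and 0.415 FPKM), with 0 of 4 passing in either list. Of all 25733 genes, 2.14% passed in the fit without the block and 13.2% in the fit with it. The part of these markers in the change of CEACAM1 was not tested.

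Taken group against group over all 12 libraries, CEACAM1 did not pass without the block. The counts of pairs given here follow from the lack of overlap between libraries with and without NH4Cl. NH4Cl against control gave 0.19 (SE 0.0686, adjusted p = 0.320, higher in 3 of 3 pairs), where 0.381% of genes (47) passed. Both agents against TGF-β, the effect of NH4Cl in cells that also got TGF-β, gave 0.27 (adjusted p = 0.114, higher in 3 of 3 pairs), where 1.03% (127) passed. With replicate numbers 1 and 2 only it gave 0.28 and did pass (adjusted p = 0.0420), where 14.1% (1740) passed, or did not with the block besides (adjusted p = 0.0589). Both agents against control, which shares its control libraries with the first of these, gave 0.20 (adjusted p = 0.224), where 0.948% (117) passed. With the replicate block the adjusted p was 0.0594 for NH4Cl against control, where 13.6% of genes (1674) passed. With the block it was 0.0115 for both agents against TGF-β (18.8%, or 2322 genes, passed), and 0.0361 for both agents against control (18.4%, 2274). The blocked call for both agents against TGF-β was lost without TGF-β replicate 1 (adjusted p = 0.0544) or replicate 1 with both agents (0.0511). The blocked call against control was lost without control replicate 1, 2 or 3 (0.112, 0.117 and 0.0863), without NH4Cl replicate 2 (0.0524), and without replicate 1, 2 or 3 with both agents (0.128, 0.0558 and 0.0834). Over all 38 settings tried the adjusted p ran from 0.0441 to 0.724 for NH4Cl against control, from 0.0253 to 0.556 for both agents against control and from 0.00306 to 0.412 for both agents against TGF-β.

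The next question is whether TGF-β moved CEACAM1, alone or after NH4Cl. TGF-β against control gave -0.07 (SE 0.0686, adjusted p = 1.00), with lower FPKM in 3 of 3 pairs (differences of -0.336 to -0.0154 FPKM), and limma called 0% of genes there (0 of 12341; 103 at an unadjusted p under 0.05, and 0 by limma-voom on reads). With the block CEACAM1 did not pass either, where 0.0081% of genes (1) did, 422 had an unadjusted p under 0.05 and limma-voom called 2. That gene was ID1, a known target of the TGF-β family, which rose by 0.65 (adjusted p = 0.0248). Both agents against NH4Cl gave 0.02 (adjusted p = 1.00), where limma called 0% (165 at an unadjusted p under 0.05, and 0 by limma-voom), or 0.0081% (1, again ID1) with the block, with 879 at an unadjusted p under 0.05 and 2 by limma-voom. Leaving out 1 library, TGF-β against control ran from -0.11 to -0.0084, the latter without TGF-β replicate 1, and never passed. The interaction, which asks whether the NH4Cl effect differed with TGF-β, was 0.08 (SE 0.0971, adjusted p = 1.00), and ran from 0.02 without TGF-β replicate 1 to 0.12 without TGF-β replicate 3. Limma called 0% of genes for it without the block (115 at an unadjusted p under 0.05, 0 by limma-voom) and 0% with it (537 and 1). A change of CEACAM1 after 1 h of TGF-β was thus not detected, which does not show that there was none.

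**Figure D3:**
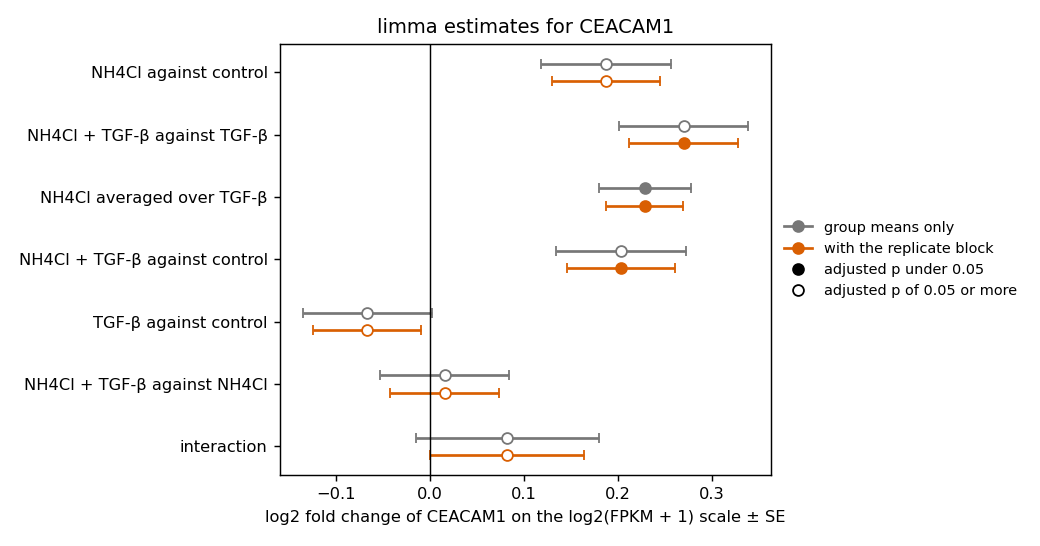
Fitted log2 fold changes of CEACAM1 on the log2(FPKM + 1) scale with their SE for 7 comparisons, from group means only (grey) and with the replicate block (orange); filled points passed an adjusted p of 0.05. The estimates with NH4Cl lie between 0.19 and 0.27, those of TGF-β at -0.07 and 0.02, and the interaction at 0.08.

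CEACAM19 was the other member with no overlap between libraries with and without NH4Cl. It averaged 1.12 ± 0.216 and 0.734 ± 0.0999 FPKM (SD, n = 6), a ratio of 1.53, from 554 and 371 reads. With no overlap it was bound to be higher with NH4Cl in 6 of 6 pairs. Of all 25733 genes, 2.01% (516) were separated in this way. Its mean was under the filter, so it was tested only in fits to all 25733 genes. There the averaged effect was 0.29 (SE 0.0764), with an adjusted p of 0.0904 without the block, where 2.14% of genes (550) passed, and 0.0268 with it, where 13.2% (3396) passed. Limma-voom on reads without the filter gave 0.61, with an adjusted p of 0.0510 without the block and 0.00106 with it, where 17.9% (4602) passed. The calls for CEACAM19 in the averaged comparison thus needed the block. Group against group, CEACAM19 passed in 1 of 4 fits without the filter for NH4Cl against control and for both agents against control. Each time this was limma-voom with the block (adjusted p = 0.00819 and 0.0263). For both agents against TGF-β CEACAM19 passed in 0 of 4 fits (adjusted p 0.129 to 0.572).

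CEACAM6 and CEACAM5 had lower values with NH4Cl that did not pass any test. CEACAM6 averaged 0.277 ± 0.265 FPKM with NH4Cl and 0.430 ± 0.293 FPKM without it, from 80 and 124 reads, and was lower in 6 of 6 pairs, as were 9.5% of genes (2445). Its adjusted p for the averaged comparison ran from 0.109 to 0.715 over 4 fits without the filter. CEACAM5 averaged 0.0581 ± 0.0411 and 0.133 ± 0.0915 FPKM, from 18 and 42 reads, and was lower in 5 of 6 pairs. Its adjusted p ran from 0.0767 to 0.447 over the same fits. Of these genes, then, CEACAM1 and CEACAM19 had higher and CEACAM5 and CEACAM6 lower mean values with NH4Cl, and whether these directions differ between the genes was not tested.

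**Figure D4:**
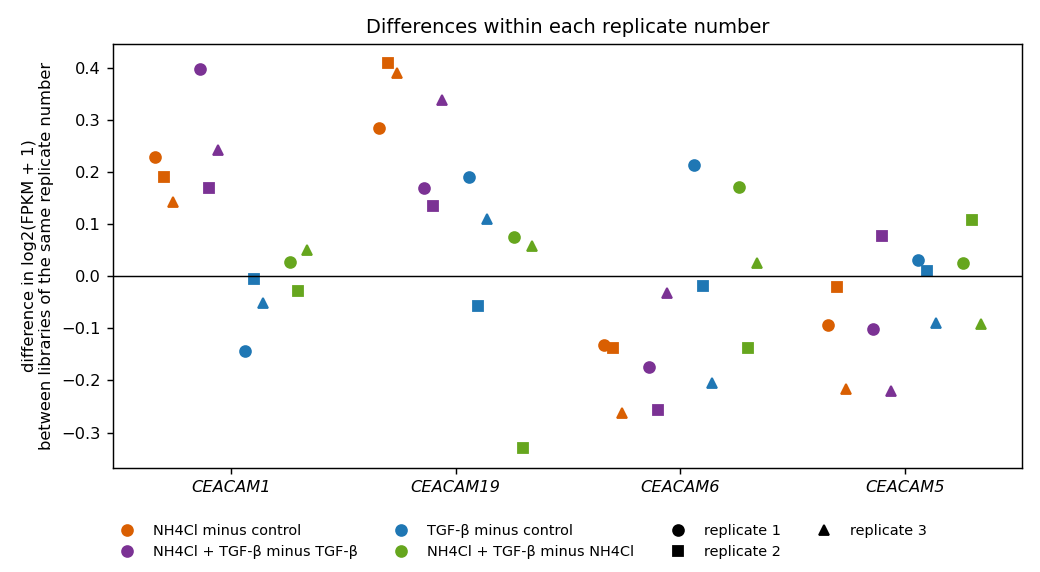
Difference in log2(FPKM + 1) between libraries of the same replicate number, for the NH4Cl effect without and with TGF-β and the TGF-β effect without and with NH4Cl; symbols are replicate numbers. All 6 NH4Cl differences lie above 0 for CEACAM1 and CEACAM19 and below 0 for CEACAM6, and 5 of 6 lie below 0 for CEACAM5.

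The largest split of CEACAM6 was by replicate number and not by treatment. Its 4 libraries of replicate number 3 had at least 0.589 FPKM and the other 8 at most 0.405 FPKM, with means of 0.692 and 0.184 FPKM, and it differed by 0.52 on the log2 scale (SE 0.0710, adjusted p = 4.2e-04). CEACAM5 averaged 0.156 FPKM in replicate number 3 and 0.0652 in the others (0.11, adjusted p = 0.0889), CEACAM1 3.04 and 2.82 FPKM (0.08, adjusted p = 0.170), and CEACAM19 1.01 and 0.890 FPKM (0.08, adjusted p = 0.476). Of 10 markers of differentiated colonocytes and goblet cells 4 were higher in replicate number 3, where 30.6% of all genes differed and 15.9% were higher. These were TFF3 at 153 against 51.4 FPKM (1.57, adjusted p = 6.6e-07), CDH17 at 6.12 against 4.32, CA2 at 1.04 against 0.574 and MUC2 at 0.566 against 0.335 FPKM. The other 6 did not pass, among them KRT20 at 0.228 against 0.170, LGALS4 at 0.937 against 1.12 and SLC26A3 at 0.177 against 0.184 FPKM. The list summed to between 147 and 193 FPKM in replicate number 3 and to between 51.5 and 75.3 FPKM in the others, most of it TFF3. Of the 8 colon epithelium markers 4 were higher in replicate number 3 (KRT8, KRT18, KRT19 and CDH1), beside the same 15.9% of all genes, with sums of 2908 to 3429 against 2285 to 2527 FPKM. Endothelial markers, VWF and PECAM1, were higher as well, 2 of 2, with sums of 3.96 to 6.54 against 1.29 to 2.77 FPKM. Of 4 fibroblast markers 1 was higher, COL1A1, with sums of 2.04 to 2.68 against 1.18 to 1.75 FPKM, and of 4 leukocyte markers 1 was lower, ITGAM. The part of any of these in the level of CEACAM6 was not tested.

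Around CEACAM1 the nearest expressed genes at lower coordinates were LIPE, 79.9 kb away, and CNFN. The 3 nearest at higher coordinates were LYPD3, 899.6 kb away beyond the PSG cluster, PHLDB3 and ETHE1. In the averaged NH4Cl comparison none of these 5 passed without the block. With it LYPD3, a GPI-anchored relative of the urokinase receptor, rose by 0.49 (adjusted p = 1.4e-04; 4.14 against 2.70 FPKM) and PHLDB3 by 0.27 (adjusted p = 4.6e-04). ETHE1, a mitochondrial sulfur dioxygenase, fell by 0.13 (adjusted p = 0.0338). LIPE, the hormone-sensitive lipase next to CEACAM1, had 0.10 (adjusted p = 0.107) and CNFN -0.22 (adjusted p = 0.0927). These neighbours thus included genes of either direction.

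The genes whose log2 values over the 12 libraries were most like those of CEACAM1 were TTC32 (Pearson r = 0.964), the transmembrane prolyl hydroxylase P4HTM (0.963) and PTMS, or parathymosin (0.959). After the mean of each replicate number was subtracted they were QPRT, an enzyme of NAD synthesis (0.977), ZNF277 (0.975) and again TTC32 (0.972). These correlations over 12 libraries share the same treatment groups and were picked as the highest of 12341 genes, so they only describe likeness. PTMS, the most abundant of them, averaged 544 FPKM with NH4Cl and 463 FPKM without it, and TTC32 6.72 and 4.82 FPKM.

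Lists of genes tied to this family were read in the averaged NH4Cl comparison with the block, where the median log2 change of all 12341 tested genes was -0.00, 16.1% of them (1981) rose and 15% (1849) fell. Of 17 CEACAM1 signalling partners 15 were tested, 0 rose and 6 fell, beside 31% of all genes that passed in either direction, and their median was -0.06. FLNA, the actin cross-linker filamin A that binds the CEACAM1 tail, fell by 0.32 (SE 0.0442, adjusted p = 6.3e-04; 121 FPKM with and 151 without NH4Cl). EGFR, the epidermal growth factor receptor, fell by 0.30 (adjusted p = 0.00204; 1.099 against 1.58 FPKM), and CTNNB1, or β-catenin, fell by 0.22 (adjusted p = 7.6e-05; 108 against 126 FPKM). These 3 also passed without the block (adjusted p = 0.0352, 0.0125 and 0.0396). The phosphatase genes PTPN6 and PTPN11, whose products SHP-1 and SHP-2 bind the long tail, had -0.01 and 0.07 (adjusted p = 0.850 and 0.128). HAVCR2, the receptor TIM-3, was at 0.0708 FPKM, and ITGB3 was not in the table.

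Of 10 adhesion and survival partners of CEACAM5 and CEACAM6 9 were tested, 2 rose and 3 fell, beside 16.1% and 15% of all genes, with a median of -0.03. TNFRSF10B, the death receptor DR5, rose by 0.13 (SE 0.0234, adjusted p = 0.00222), while CAV1, or caveolin-1, fell by 0.29 (adjusted p = 4.2e-04) and HNRNPM fell by 0.16 (adjusted p = 0.00716). The integrin subunit ITGA5 also rose, by 0.16 (adjusted p = 0.0125), and the kinase SRC fell by 0.16 (adjusted p = 0.0174). Of the 8 genes that attach and remodel GPI anchors 8 were tested, 0 rose and 4 fell, beside 16.1% and 15% of all genes, with a median of -0.07. PGAP3, which remodels the anchor's lipid, fell by 0.41 (SE 0.0615, adjusted p = 9.98e-04; 1.88 FPKM with and 2.82 without NH4Cl), and the GPI transamidase subunit GPAA1 fell by 0.25 (adjusted p = 5.3e-04). The other 2 that fell were PGAP2 (-0.13, adjusted p = 0.0275) and PIGT (-0.10, adjusted p = 0.0405). Of 3 splicing factors of CEACAM1 0 rose and 2 fell, HNRNPA1 by 0.16 (adjusted p = 9.99e-04) and HNRNPM, beside 15% of all genes that fell, with a median of -0.16.

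Of 11 transcription factors known from CEACAM promoters 9 were tested, 2 rose and 2 fell, beside 16.1% and 15% of all genes, with a median of 0.00. USF2, an E-box factor, rose by 0.18 (SE 0.0245, adjusted p = 5.5e-04; 54.0 FPKM with and 47.6 without NH4Cl) and SOX9 by 0.12 (adjusted p = 0.00956). IRF1, an interferon-regulated factor, fell by 0.21 (adjusted p = 0.00103), as did SP3 (-0.16, adjusted p = 0.0308). Of the exon bases of IRF1, 22.0% lie under genes of the opposite strand. SMAD4 and the kinase gene ILK were listed at 0.163 and 0.259 FPKM. Other genes overlap 7.37% and 78.5% of their exon bases, and the part of that in these levels was not tested, so they are not read as levels of expression here. TFAP2A was at 0.526 FPKM.

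Without the block, limma called fewer of these genes in the averaged comparison, as of all genes (6.14%). The counts were 3 of 15 signalling partners, 0 of 9 partners of CEACAM5 and CEACAM6 (0 at an unadjusted p under 0.05, 0 by limma-voom), 1 of 8 GPI genes (PGAP3, adjusted p = 0.0148), 0 of 9 transcription factors (3 at an unadjusted p under 0.05, 1 by limma-voom) and 0 of 3 splicing factors (1 and 1). In the 6 comparisons between groups limma called 0 genes of any list without the block. At an unadjusted p under 0.05 in at least 1 of them were 3 signalling partners, 0 partners of CEACAM5 and CEACAM6, 3 GPI genes, 2 transcription factors and 1 splicing factor, and limma-voom without the block called 0.

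**Figure D5:**
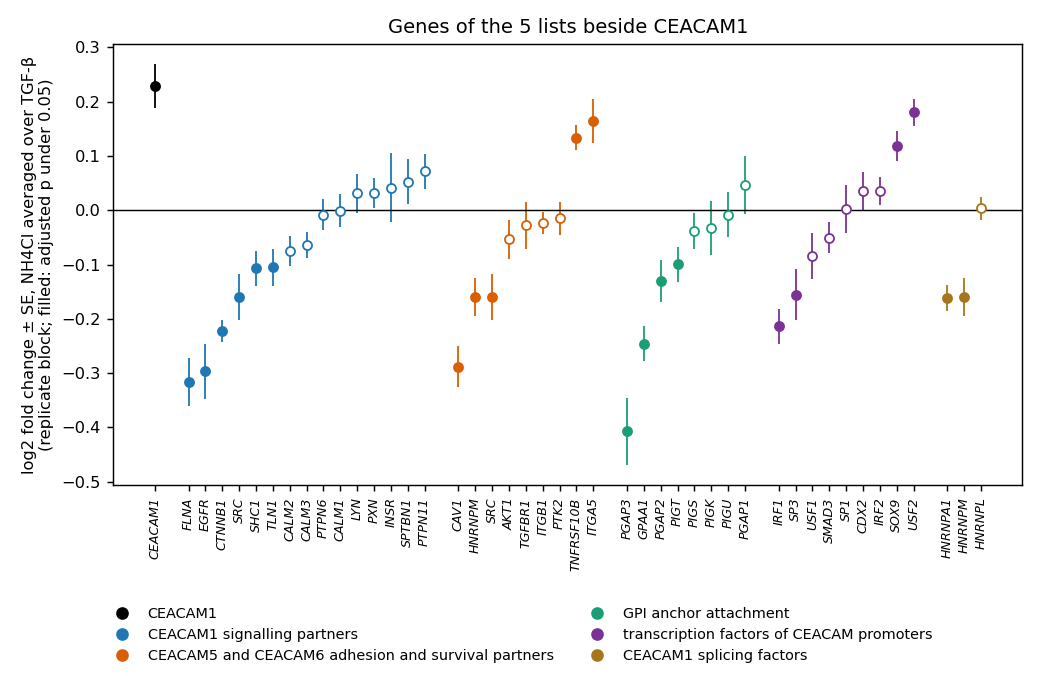
Averaged log2 change with NH4Cl and its SE, with the replicate block, for CEACAM1 and the tested genes of 5 lists; filled points passed an adjusted p of 0.05. CEACAM1 lies at 0.23. Genes of the lists that passed above 0 were TNFRSF10B and ITGA5 (partners of CEACAM5 and CEACAM6) and USF2 and SOX9 (transcription factors). Of the 8 GPI genes, the 15 signalling partners and the splicing factors 0 did, where 16.1% of all 12341 tested genes did.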

How the data were processed

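RNA of 12 HCT116 libraries was measured by sequencing. The authors deposited FPKM per gene for each library, and their notes list Trimmomatic 0.36, STAR 2.5.2b, featureCounts of Subread 1.5.2 and DESeq2 on GRCh38. The values were used as deposited. Whole reads were recovered from them with GENCODE 29 exon lengths, and in each library 100.0% of values were whole within a tolerance of 0.01 reads. With limma 3.58.1 in R 4.3.3, log2(FPKM + 1) of the 12341 genes with a mean of at least 1 FPKM was fitted to group means (trend, moderated two-sided test, Benjamini-Hochberg over all genes tested, threshold 0.05). A change on the log2(FPKM + 1) scale is smaller than the true log2 ratio for genes as low as these. Tables and figures used Python 3.11.15, numpy 2.4.6, pandas 2.3.3 and matplotlib 3.10.9. Libraries with the same replicate number correlated after group means were subtracted (all 18 pairs above 0.1, r from 0.349 to 0.774), so the number, taken from the sample labels, was also fitted as a block. The fit was tested on simulated data.

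Alternatives were the block, a pseudocount of 0.1, no filter, scaling to equal sums (TPM), median centring, fitting only the groups compared, limma-voom on the recovered reads, and leaving out each library. The averaged NH4Cl comparison, replicates 1 and 2 only, fits that combine these, and replicate number 3 against 1 and 2 were chosen after seeing the data. The members and lists were chosen with earlier results of these data known. Named genes were the 4 members, all other CEACAM and PSG genes, the 3 genes most like each expressed member by 2 measures, genes from its 3 nearest expressed on either side, and up to 6 genes per list that passed in a comparison between groups with or without the block. PTPN6, PTPN11, HAVCR2, ITGB3, ILK, SMAD4, TFAP2A, ITGA5, SRC, PGAP2, PIGT, SP3, ID1, PVR, LIPE-AS1 and AC243967.1 were named besides, after their values were seen. The 5 lists hold signalling partners of CEACAM1, partners of CEACAM5 and CEACAM6, GPI anchor genes, transcription factors and splicing factors, beside 5 marker lists.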

Additional observations from a re-analysis of the deposited data

How the results depend on the processing

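CEACAM1 kept its side of the threshold and its direction in 222 of the cases tried, came past the threshold in 23, lost its call in 9, all in the averaged comparison, and reversed in 5. Counted against the fit to group means, the direction in both agents against NH4Cl, near 0 and never called, reversed with replicates 1 and 2 only (-8.4e-04 with and without the block); leaving out 1 library it ran from -0.011 to 0.049, and from -0.016 to 0.047 with the block. The replicate block brought CEACAM1 past the threshold in both agents against control (0.20) and against TGF-β (0.27). The block on limma-voom did so in NH4Cl against control (0.26), both agents against control (0.27) and against TGF-β (0.38). Against TGF-β it also passed with no filter and the block (0.27), with limma-voom, no filter and the block (0.37), and with replicates 1 and 2 only (0.28). The averaged comparison lost its call with no filter (0.23) and without any 1 of 8 libraries. Leaving out 1 library, with or without the block, CEACAM1 ran from 0.17 to 0.24 for both agents against control, 0.21 to 0.31 against TGF-β and 0.20 to 0.25 in the averaged comparison. Members under the filter had no test in the design, and limma-voom with the filter gave no value for them. Their changes moved by more than the replicate spread in 18 cases for CEACAM19, 20 for CEACAM5 and 14 for CEACAM6. In the order NH4Cl against control, both agents against control, both agents against TGF-β and averaged, CEACAM19 had 0.69, 0.57, 0.40 and 0.54 with a pseudocount of 0.1, and 0.77, 0.65, 0.45 and 0.61 with limma-voom without the filter, or 0.77, 0.63, 0.45 and 0.61 with the block too. Its interaction was -0.29, -0.32 and -0.33 in these. Scaled to equal sums (TPM) it had 0.58, 0.48 and, averaged, 0.46. CEACAM5 had -0.57, -0.48, -0.45 and -0.51 with the pseudocount of 0.1, -0.30, -0.24, -0.22 and -0.26 as TPM, -1.14, -0.90, -0.95 and -1.04 with limma-voom, and -1.20, -1.19, -1.15 and -1.17 with the block too. Limma-voom gave it 0.24 in both agents against NH4Cl and 0.20 for the interaction, and replicates 1 and 2 only, with and without the block, gave 0.0088 in both agents against control. CEACAM6 had -0.59, -0.66, -0.73 and -0.66 with the pseudocount of 0.1, -0.82, -1.43, -1.58 and -1.20 with limma-voom, and -0.72, -0.86, -0.80 and -0.76 with the block too. Limma-voom gave it -0.61 in both agents against NH4Cl and -0.76 for the interaction. Without the block, leaving out 1 library, it ran from -0.35 to 0.04 in NH4Cl against control, turning without control replicate 3, from -0.34 to 0.06 in both agents against control, turning without that library or replicate 2 with both agents, and from -0.33 to 0.01 in both agents against TGF-β, turning without the latter. In TGF-β against control, both agents against NH4Cl and the interaction CEACAM5 and CEACAM6 took either sign, and CEACAM19 did so in both agents against NH4Cl. Mean levels as TPM were 10.3 for CEACAM1, 3.30 for CEACAM19, 1.21 for CEACAM6 and 0.333 for CEACAM5. Counts of all genes past the threshold, in the same order, were 1674, 2274, 2322 and 3830 with the block, 2243, 2931, 2981 and 4463 with limma-voom and the block, 1989, 2708, 2757 and 4602 with that and no filter, 1123, 1625, 1574 and 3396 with no filter and the block, 1293, 1630, 1740 and 3282 with replicates 1 and 2 only, and 1147, 1605, 1653 and 3206 with those and the block. With no filter the first 3 were 23, 39 and 51, with limma-voom and no filter 23, 45 and 28, and 0 each when only the groups compared were fitted. As TPM both agents against control gave 54, against TGF-β 58 and averaged 491, and limma-voom gave 75 and 82. Leaving out 1 library the 4 counts ran from 0 to 89, 2 to 155, 3 to 133 and 344 to 902, and with the block from 705 to 1786, 1169 to 2348, 1249 to 2365 and 3052 to 3557. TGF-β against control and both agents against NH4Cl gave 1 each with the block, 2 each with limma-voom and the block, and 2 and 5 with no filter besides. The interaction gave 1 and 2 in these limma-voom fits. Replicates 1 and 2 only with the block gave 1 for TGF-β against control and 1 for the interaction. Leaving out 1 library these 3 counts ran from 0 to 2, 0 to 1 and 0 to 1. Where the filter was dropped more genes were tested, and elsewhere the cause was not tested. Where a left-out library leaves 2 in a group, limma pools the spread over groups. At the depth of these libraries CEACAM5 rests on 60 reads and CEACAM6 on 204 in all.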
